A study of Mus musculus with 31 samples.

Results

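The 29 genes described here encode synaptic vesicle proteins and other proteins of mature neurons. They were chosen by name as a functional set, and all 29 were found among the 24062 gene names of the mouse tissue data and the 24322 gene names of the culture data. They comprised 8 vesicle proteins (Syt1, Syp, Syn1, Syn2, Sv2a, Sv2b, Vamp2 and Rab3a), 4 plasma membrane SNAREs and complexins (Snap25, Stx1a, Cplx1 and Cplx2) and 4 active zone proteins (Rims1, Unc13a, Bsn and Pclo). The remaining members were 3 synaptic adhesion proteins (Nrxn3, Nlgn1 and Nlgn2), 2 subunits of the kinase CaMKII (Camk2a and Camk2b), 6 proteins of the cytoskeleton and the growth cone (Map2, Nefl, Nefm, Nefh, Stmn2 and Gap43) and 2 other neuronal proteins (Rbfox3 and Sncb).

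RNA sequencing covered 21 libraries in 7 groups of 3. MDZ P10 and Control P10 were C57BL/6 Nestin-EGFP mice that received midazolam at 10 mg/kg or water by intraperitoneal injection on postnatal days 7, 8 and 9 and were sampled on day 10. RUN MDZ 8w, MDZ 8w and Control 8w were mice of the same strain and genotype sampled at 8 weeks, namely midazolam-exposed mice kept with a running wheel, exposed mice kept without one, and water-injected mice. No group of water-injected runners was among the samples, so running was studied in exposed mice alone. Midazolam is a benzodiazepine sedative that strengthens inhibitory GABA-A receptor currents. In Nestin-EGFP mice a fluorescent protein is driven by regulatory sequence of the nestin gene, which is active in neural stem and progenitor cells. Because the protein outlasts the transcription, a sort for EGFP collects their recent progeny too. EGFP-positive cells came from the hippocampal dentate gyrus, with 50000 cells of 1 mouse in a P10 library and about 30000 cells pooled from 3 to 5 mice in an 8-week library. Egr1 culture and Control culture were neural stem cells from the cortex of ICR mice at embryonic day 11, passaged more than 20 times. Both carried a lentivirus for the M2rtTA transactivator, and Egr1 culture also carried one for Flag-tagged Egr1, an activity-induced transcription factor. The labels do not say that the 3 libraries of a culture group were separate cultures, so p-values there cover the spread among the deposited samples and this spread may be technical.

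A nerve terminal stores transmitter in vesicles, docks them at the active zone and fuses them with the plasma membrane when calcium enters. Fusion is driven by the pairing of vesicle SNAREs with SNAREs of the plasma membrane, and it is triggered by a calcium sensor and clamped or helped by complexins. In the dentate gyrus, stem cells divide to give intermediate progenitors and immature granule neurons, and most of this machinery is raised as those neurons mature.

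Levels are in FPKM at P10 and in TPM at 8 weeks and in culture, both of which are scaled by transcript length. The 3 sets were normalized separately, so levels are not compared across them. Nes, the gene for nestin, was present at 9.19 to 10.1 FPKM in MDZ P10, against 8.71 to 11.1 FPKM in Control P10. At 8 weeks Nes stood at 39.2 to 60.7 TPM in RUN MDZ 8w, 43.8 to 85.6 TPM in MDZ 8w and 12.2 to 26.1 TPM in Control 8w. Dcx, a marker of immature neurons, was present in every sorted library and was listed at 0 in all 3 Control culture libraries. Added Egr1 was visible in the culture libraries, with 1769, 1390.3 and 1291 TPM of Egr1 in Egr1 culture, against 361, 285 and 344 TPM in Control culture. Genes above 0 numbered 17623 to 18470 in a P10 library and 15537 to 15998 in a culture library. At 8 weeks they numbered 15568 to 15906 in RUN MDZ 8w and 15382 to 16709 in MDZ 8w, against 11163 to 11397 in Control 8w. In Control 8w, replicate 2 and replicate 3 had 97.4% of detected genes in common, against 78.4% and 77.8% when each was paired with replicate 1, and pairs within the exposed 8-week groups shared 81.7% to 90%. They were thus closer to each other than the libraries of any other 8-week pair. The files used here hold no counts and the difference could not be set against sampling noise, so the mean of the 2 libraries entered as 1 sample and Control 8w had n = 2.

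RefSeq promoter sequences (GRCm38.p6, which is mm10, from 250 bases before to 50 bases after a gene start) matched 21 of the 29 members with 30 promoters. Vamp2, Snap25, Nefl, Nefm, Nefh, Stmn2 and Gap43 were not matched. No promoter of Camk2a was used either, so Camk2a was not searched for motifs and its lack of a promoter here is not a finding. The 4 sequences below belong to vesicle genes that moved in opposite directions when Egr1 was added. They are the 2 synapsin genes, which rose and hold motifs searched for here, and Sv2a and Syp, which had the largest falls among the vesicle genes. The synapsins were thus picked by motif and the other 2 by size of fall, so the contrast in motifs between these 4 was built in. Each is written 5′ to 3′ in the direction of the gene. Capitals mark the cAMP response element TGACGTCA and the left part of the neuronal silencer element RE1, TTCAGCACC, in Syn1 and an EGR motif in Syn2. The Syn1 promoter lies at chrX:20920869-20921168 on the minus strand, the Syn2 promoter at chr6:115134652-115134951, the Sv2a promoter at chr3:96180977-96181276 and the Syp promoter at chrX:7638330-7638629, all 3 on the plus strand.
Syn1: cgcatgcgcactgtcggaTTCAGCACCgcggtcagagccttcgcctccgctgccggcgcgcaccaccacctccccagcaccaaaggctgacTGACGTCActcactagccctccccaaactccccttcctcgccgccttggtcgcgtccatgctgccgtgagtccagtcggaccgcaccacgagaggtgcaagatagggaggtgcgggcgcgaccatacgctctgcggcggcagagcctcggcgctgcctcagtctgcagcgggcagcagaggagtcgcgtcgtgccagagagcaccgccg
Syn2: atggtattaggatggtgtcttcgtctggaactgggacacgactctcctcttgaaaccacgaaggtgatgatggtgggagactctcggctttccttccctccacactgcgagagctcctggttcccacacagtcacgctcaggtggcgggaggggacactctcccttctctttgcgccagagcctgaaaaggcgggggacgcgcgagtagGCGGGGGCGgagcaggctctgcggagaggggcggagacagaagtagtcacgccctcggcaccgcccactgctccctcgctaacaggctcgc
Sv2a: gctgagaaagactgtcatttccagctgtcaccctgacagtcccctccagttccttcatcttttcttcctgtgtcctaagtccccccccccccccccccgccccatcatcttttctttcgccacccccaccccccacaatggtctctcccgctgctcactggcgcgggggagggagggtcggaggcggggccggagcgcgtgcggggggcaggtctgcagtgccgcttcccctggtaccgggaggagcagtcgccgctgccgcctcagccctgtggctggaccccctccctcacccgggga
Syp: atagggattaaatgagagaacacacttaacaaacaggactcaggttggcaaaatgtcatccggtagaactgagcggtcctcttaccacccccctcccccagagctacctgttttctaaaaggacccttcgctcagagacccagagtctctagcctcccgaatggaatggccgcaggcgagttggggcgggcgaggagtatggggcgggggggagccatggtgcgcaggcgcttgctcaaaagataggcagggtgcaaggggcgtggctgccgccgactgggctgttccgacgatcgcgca

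The EGR motif was searched as GCGTGGGCG or GCGGGGGCG on both strands and was held by 3.47% of all 32851 promoters. Among the members it was found in Syn2, 41 to 33 bases before the start, in Cplx1, after the start, and in Unc13a, before the start on the opposite strand. TGACGTCA was held by 1.79% of all promoters and by Syn1 alone among the members, 159 to 152 bases before the start. TTCAGCACC was held by 0.371% of all promoters and was found in Syn1, Unc13a and 1 of the 2 Nlgn1 promoters. In Unc13a it lay after the start and did not overlap the EGR match. Sv2a and Syp held none of the 3 motifs in this window. Neither did the matched promoters of Syt1, the vesicle gene that rose most in culture, or of Cplx2 and Camk2b, which also rose. Those of Stx1a and Nlgn2, which fell, held none either. Cplx1 and Unc13a were not tested in culture. Over the 30 member promoters the median share of G and C was 60.3%, against 52.7% for all promoters, and the median number of CpG dinucleotides was 16.5 against 7. A match is a description of letters and not a measured binding site. The genes themselves were long, with a median RefSeq span of 62.8 kb against 17.1 kb for all protein-coding genes, and 9 of the 29 spanned over 100 kb.

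The members spanned most of the expression range, as the plot of levels by library shows. At P10 the order of means from the top was Vamp2, the vesicle SNARE, Map2, a microtubule-associated protein of dendrites, Nlgn2, an adhesion protein of inhibitory synapses, Cplx2 and Rab3a in both groups. Vamp2 averaged 87.8 ± 1.64 FPKM in MDZ P10, against 79.3 ± 1.33 FPKM in Control P10 (SD, n = 3 each). Its median position was above 98.6% and 98.4% of all genes in those groups. Map2 followed at 70.7 ± 1.98 FPKM in exposed mice and 78.7 ± 3.47 FPKM in the controls, so in Control P10 the leading 2 genes did not differ beyond their spread. At 8 weeks Map2, Vamp2, Cplx2 and Stmn2, a tubulin-binding protein of growing axons, were among the 5 highest in every group. The neurofilament genes Nefl, Nefm and Nefh, whose proteins fill large mature axons, were the 3 lowest members at P10. Their means ran from 0.0912 to 0.579 FPKM in the MDZ P10 group, against 0.0669 to 0.451 FPKM in the Control P10 group. Syt1, the calcium sensor for fast release, averaged 1.57 ± 0.132 FPKM in the exposed mice and 1.41 ± 0.339 FPKM in the controls (SD, n = 3 each), far under Vamp2. In culture the leading members were Camk2b, Map2 and Gap43. Their means were 346, 306 and 289.6 TPM in that order in Egr1 culture, against 185, 255 and 746 TPM in Control culture. Stmn2 was listed at 0 in all 3 Egr1 culture libraries and Nefl and Sncb in all 3 Control culture libraries.

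**Figure D1:**
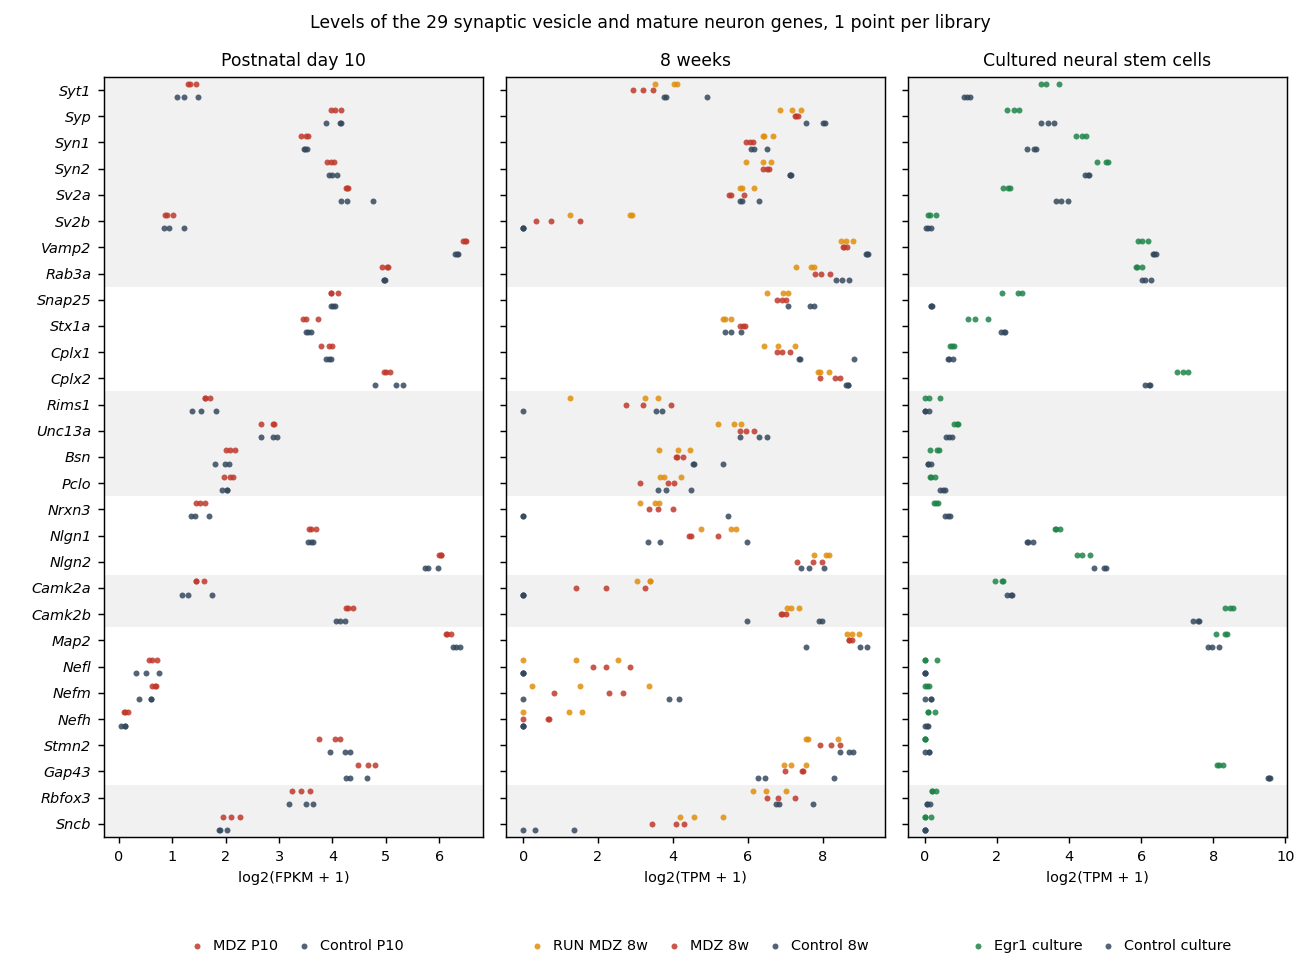
Level of each member in every library, as log2(FPKM + 1) at P10 and log2(TPM + 1) at 8 weeks and in culture, with genes grouped by role in shaded bands and 1 point per library. Vamp2 and Map2 lie at the right in the sorted cells of both ages, the neurofilament genes lie at the left, and the 2 culture groups separate in both directions.

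The culture comparison asked how these genes differed in neural stem cells with added Egr1. The set differed in both directions. Egr1 culture carried a lentivirus that Control culture did not, so effects of Egr1 and of that virus cannot be told apart. Syt1, Snap25, Syn1, Cplx2, Camk2b, Nlgn1 and Syn2 rose, and Sv2a, Gap43, Syp, Stx1a, Nlgn2 and Vamp2 fell, so that 13 of the 16 members in the fit changed. In bulk samples, here and in the sorted cells, a change in the share of cells that express a gene and a change in its RNA per cell cannot be told apart. The 7 that rose compare with 15.2% of all 12402 genes tested that rose, and the 6 that fell with 29% of all genes. The median change of the 16 members was 0.03 on the log2 scale, against -0.10 for all genes. The other 13 members, among them all 4 active zone genes and the 3 neurofilament genes, had a mean over the 6 libraries below 1 TPM and were not tested. All changes below are differences in log2(value + 1) from limma, which understate the change of genes near 0, and a gene was called changed at a Benjamini-Hochberg adjusted p below 0.05 over all genes in the fit.

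Among the vesicle proteins, Syt1 measured 12.1, 9.24 and 8.29 TPM in Egr1 culture, against 1.26, 1.1 and 1.36 TPM in Control culture. Every Egr1 culture library was far above every Control culture library, by 7.97 times in the ratio of means. The difference in log2(TPM + 1) was 2.27 ± 0.15 (SE, limma adjusted p = 7.87e-06). Syn1, a synapsin that tethers vesicles to the cytoskeleton, measured 21.2, 19.4 and 17.4 TPM against 7.39, 6.16 and 7.16 TPM (limma log2 change 1.36 ± 0.11, adjusted p = 2.21e-05). Its relative Syn2 moved less, with 32.7, 31.4 and 26.4 TPM in Egr1 culture and 22.5, 20.8 and 22 TPM in Control culture (limma log2 change 0.45 ± 0.09, adjusted p = 0.00488). Neither synapsin had overlapping groups. Sv2a, a vesicle glycoprotein and the target of the antiepileptic levetiracetam, fell. It measured 4.12, 3.9 and 3.47 TPM in Egr1 culture, against 14.5, 11.4 and 12.8 TPM in Control culture (limma log2 change -1.52 ± 0.12, adjusted p = 2.05e-05). Syp, the abundant vesicle membrane protein synaptophysin, measured 4.58, 5.14 and 3.84 TPM against 9.69, 8.35 and 11 TPM (limma log2 change -0.95 ± 0.14, adjusted p = 6.18e-04). Thus 3 vesicle genes rose and 3 fell, the last being Vamp2 with 64.9 ± 6.64 TPM in Egr1 culture and 81.8 ± 2.17 TPM in Control culture (SD, n = 3 each; limma log2 change -0.33, adjusted p = 0.00906). Rab3a, a GTPase of the vesicle surface, had 59.6 ± 3.33 TPM in Egr1 culture and 69.1 ± 5.94 TPM in Control culture and did not pass (limma adjusted p = 0.059), although it did without Control culture replicate 2 (adjusted p = 0.0456). Sv2b stood at 0.0239 to 0.234 TPM over the 6 libraries and was not tested.

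The partners of Vamp2 in the fusion complex also separated. Snap25, the plasma membrane SNARE that contributes a pair of helices to the complex, stood at 4.93, 3.43 and 5.47 TPM in Egr1 culture, against 0.124, 0.127 and 0.134 TPM in Control culture. It was close to absent in Control culture and present in all Egr1 culture libraries (limma log2 change 2.30 ± 0.17, adjusted p = 1.52e-05). Stx1a, its syntaxin partner, measured 1.6, 1.28 and 2.34 TPM in Egr1 culture and 3.62, 3.59 and 3.29 TPM in Control culture (limma log2 change -0.73 ± 0.16, adjusted p = 0.0062). Snap25 was thus called higher and Stx1a lower in the same libraries. Cplx2, a complexin, was the most abundant member of this class. It measured 155, 143 and 126 TPM against 73.4, 67.7 and 75.4 TPM (limma log2 change 0.96 ± 0.08, adjusted p = 4.03e-05). Cplx1 averaged 0.682 TPM in Egr1 culture and 0.619 TPM in Control culture and was not tested.

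The 2 neuroligins in the set, postsynaptic adhesion proteins, moved apart. Nlgn1, which acts at excitatory synapses, measured 12.3, 11.4 and 11.2 TPM in Egr1 culture and 6.09, 6.27 and 6.97 TPM in Control culture (limma log2 change 0.76 ± 0.10, adjusted p = 3.52e-04). Nlgn2 measured 22.8, 19.6 and 17.5 TPM against 31.6, 24.8 and 30.5 TPM (limma log2 change -0.52 ± 0.12, adjusted p = 0.00871). Nrxn3, a presynaptic neurexin, was not tested, at 0.234 TPM on average in Egr1 culture and 0.543 TPM in Control culture. Camk2b, a subunit of the calcium-dependent kinase, measured 370.0, 349.9 and 319 TPM in Egr1 culture and 192, 173 and 189 TPM in Control culture (limma log2 change 0.90 ± 0.07, adjusted p = 2.14e-05). Camk2a, the subunit that dominates in mature forebrain neurons, was scarce in both groups, at 3.27 ± 0.358 TPM and 4.15 ± 0.26 TPM (SD, n = 3 each), and did not pass (limma adjusted p = 0.0984). Gap43, a growth cone protein, was the most abundant member in Control culture. It measured 276, 309 and 284 TPM in Egr1 culture and 732, 746 and 758 TPM in Control culture, the smallest adjusted p of the set (limma log2 change -1.36 ± 0.06, adjusted p = 7.34e-07). Map2 measured 331, 318 and 268 TPM against 232, 249 and 283 TPM. Its groups overlapped and it did not pass (limma log2 change 0.26 ± 0.10, adjusted p = 0.0565), but it did with median-of-ratios scaling, with library quality weights, without Egr1 culture replicate 3 and without Control culture replicate 3 (adjusted p 0.00583 to 0.0312).

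**Figure D2:**
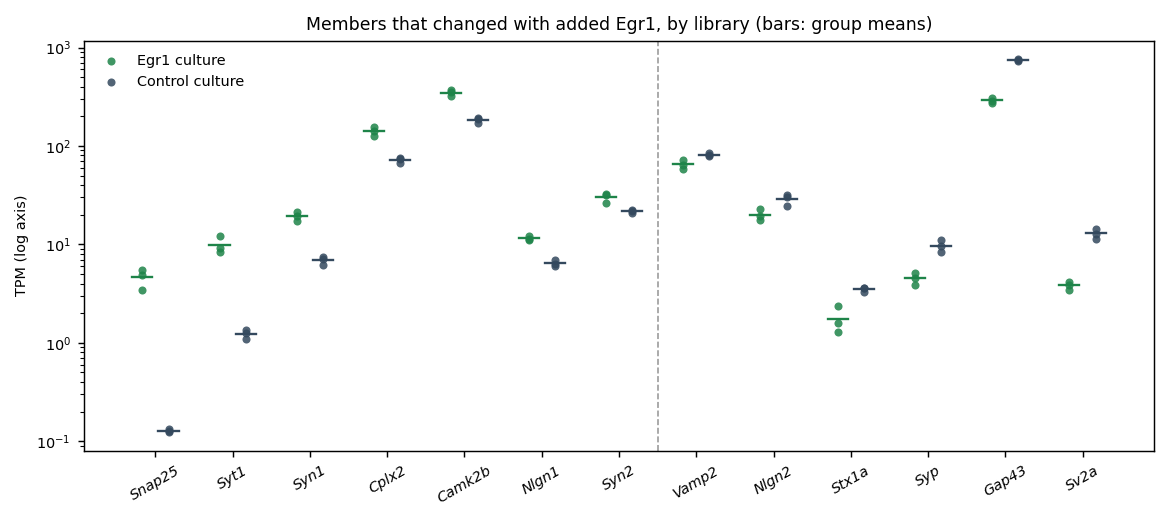
TPM on a log axis of the 13 members that changed between Egr1 culture and Control culture, with 1 point per library and a bar at the mean of 3. The 7 members that rose stand left of the dashed line and the 6 that fell right of it. Snap25 and Syt1 show the widest gaps.

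All 13 calls were kept in each of the 13 alternative fits, which included 6 that left out a library each. The median change of all genes was -0.10 as deposited and 0.01 with median-of-ratios scaling, and that scaling raised the calls that were higher to 2776 of 5497, against 1888 of 5486 as deposited. Of 72 related synaptic and neuronal genes, 51 were in the fit, of which 15 rose and 15 fell. The 5 largest increases were those of Nrgn, a calmodulin-binding protein of dendrites (418 ± 44.5 TPM in Egr1 culture and 33.6 ± 1.86 TPM in Control culture), Sv2c, Synpr, Chga and Dnm1. Their log2 changes ran from 3.59 for Nrgn to 1.25 for Dnm1. Decreases included those of Unc13b, a vesicle priming protein, Cadps and Syt7, with log2 changes of -1.07 for Unc13b, -0.99 for Cadps and -0.85 for Syt7. Markers of other cell classes moved in the same libraries. Of 6 genes of cycling cells, 5 fell, and the summed level of the list was 1008 to 1056 TPM in Egr1 culture and 1093 to 1228 TPM in Control culture. Of the 5 immature neuron markers in the fit, 3 rose. The list of 11 summed to 259 to 315 TPM in Egr1 culture and 105 to 123 TPM in Control culture, and Calb2 alone averaged 143 TPM against 1.13 TPM. Dcx was at 0.0788 to 0.123 TPM in Egr1 culture and listed at 0 in Control culture. All 3 oligodendrocyte markers in the fit rose, and the list of 7 summed to 198 to 205 TPM against 95.4 to 105 TPM. The 6 oligodendrocyte precursor markers summed to 794 to 921 TPM against 1571 to 1664 TPM, and 3 of the 4 in the fit fell. The part of these shifts in the members' changes was not tested.

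The P10 comparison asked whether the members differed in the sorted cells on the day that followed the last midazolam injection. No change passed in any of the 25 members in the fit, and 4 of the 25 had an unadjusted limma p below 0.05, as did 1575 of all 12914 genes. Over all genes, 0% were called higher and 0.00774% lower, which is 1 gene, and with quantile normalization 3 genes were called higher and 1 lower. The members' median log2 change was 0.02, against 0.01 for all genes, and the whole set lay between -0.18 for Stmn2 and 0.23 for Gap43. The smallest adjusted p was 0.329, for Vamp2. Sv2b, Nefl, Nefm and Nefh had a mean over the 6 libraries below 1 FPKM and were not tested. The levels of the whole set summed to 493, 479 and 492 FPKM in the MDZ P10 libraries, against 473, 483 and 480.2 FPKM in the Control P10 libraries, and these ranges overlapped.

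The 4 members with an unadjusted p below 0.05 were those in the fit whose groups did not overlap, 3 of them higher and 1 lower in MDZ P10. Over all genes tested, 12.2% had groups that did not overlap and were higher in MDZ P10, and 6.61% lower. Vamp2 measured 89.4, 88 and 86.1 FPKM in MDZ P10, against 80.5, 79.5 and 77.8 FPKM in Control P10 (limma log2 difference 0.15 ± 0.05). Nlgn2 measured 64.1, 64.4 and 62.9 FPKM against 54, 62.2 and 52.3 FPKM (limma log2 difference 0.19 ± 0.07, adjusted p = 0.366). Camk2b measured 18.6, 18.1 and 19.9 FPKM against 17.9, 16.6 and 15.7 FPKM (limma log2 difference 0.17 ± 0.06, adjusted p = 0.367). These 3 leaned upward in MDZ P10, with ratios of means of 1.11 for Vamp2, 1.14 for Nlgn2 and 1.13 for Camk2b. Map2 was on the lower side, with 69.1, 70.1 and 73 FPKM in MDZ P10, against 75.3, 78.6 and 82.2 FPKM in Control P10 (limma log2 difference -0.15 ± 0.06, adjusted p = 0.358). Of the other vesicle and fusion genes, Syt1 had a ratio of means of 1.11, Sv2a of 0.902 and Cplx2 of 0.932, all with overlapping groups. Syp stood at 15.7 ± 1.05 FPKM in MDZ P10, against 15.7 ± 1.73 FPKM in Control P10, and Snap25 at 15.2 ± 0.971 FPKM, against 15.1 ± 0.494 FPKM (SD, n = 3 each). Gap43 had the largest positive difference, at 26.9, 24.3 and 21.2 FPKM in MDZ P10 against 19.1, 24.2 and 18 FPKM in Control P10, with 1 Control P10 library inside the MDZ P10 range. Of the 72 related genes, 64 were in the fit and none passed by limma, with 10 at an unadjusted p below 0.05. Control P10 replicate 2 stood apart in its oligodendrocyte markers, which summed to 2761 FPKM, against 1228 to 1617 FPKM in the 5 other P10 libraries, and it was the highest P10 library for Sv2a (26.2 FPKM, against 16.8 to 18.7 FPKM). No member passed without it.

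**Figure D3:**
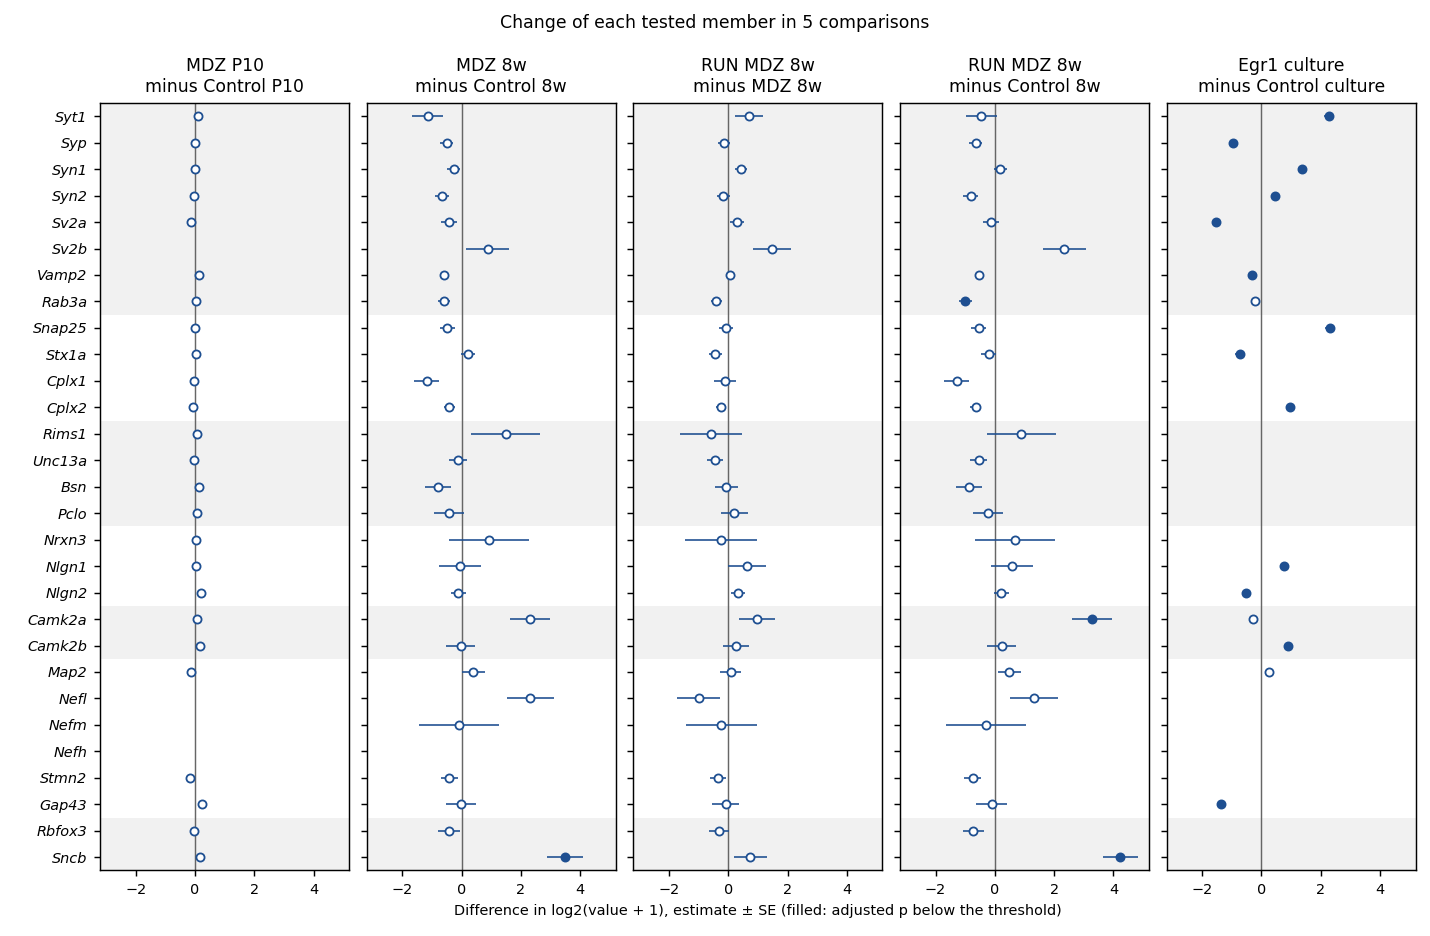
Difference in log2(value + 1) of each tested member in the 5 comparisons, as the limma estimate with its SE, with filled symbols for an adjusted p below 0.05 and no symbol where the mean was below 1. The P10 differences lie between -0.18 and 0.23, the 8-week estimates have wide errors, and the culture changes go from -1.52 to 2.30.

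At 8 weeks the summed level of the members was lower in exposed mice, a sum that weighs the abundant members most. Their levels summed to 2903, 3181 and 3040.4 TPM in RUN MDZ 8w and 2978, 3143 and 3215 TPM in MDZ 8w, with Control 8w at 4184, 4042 and 4077 TPM, and every exposed library lay below every Control 8w library. The 8 vesicle genes alone summed to 985 to 995 TPM in RUN MDZ 8w and 973 to 1041 TPM in MDZ 8w, with Control 8w at 1438 to 1530.4 TPM, and the 4 SNARE and complexin genes to 461 to 615 TPM and 528 to 678 TPM, with Control 8w at 816 to 1043 TPM. Single members did not all share this direction. Of the 28 in the fit, 20 had a negative and 8 a positive log2 difference in MDZ 8w against Control 8w, and 17 and 11 in RUN MDZ 8w against Control 8w. Among the abundant members, Vamp2, Cplx1, Cplx2, Stmn2 and Rab3a had lower means in both exposed groups. Map2 averaged 449 TPM in RUN MDZ 8w and 422 TPM in MDZ 8w, against 367 ± 256 TPM in Control 8w (SD, n = 2). The Control 8w libraries lay on both sides of the MDZ 8w values for Map2, so its direction was set by which Control 8w library was used. Markers of other stages and cell types differed between the same libraries. The 11 immature neuron markers summed to 3449 to 3708 TPM in RUN MDZ 8w and 3252 to 4726 TPM in MDZ 8w, against 5424 to 5924 TPM in Control 8w. Dcx, a defining marker of that list, stood at 235 to 288 TPM, 191 to 262 TPM and 147 to 351 TPM in these 3 groups, so it overlapped. The 11 stem cell and radial glia markers summed to 3449 to 3922 TPM in RUN MDZ 8w and 3667 to 5326 TPM in MDZ 8w, against 2270.2 to 2562 TPM in Control 8w. Their part in the members' lower sum was not tested.

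**Figure D4:**
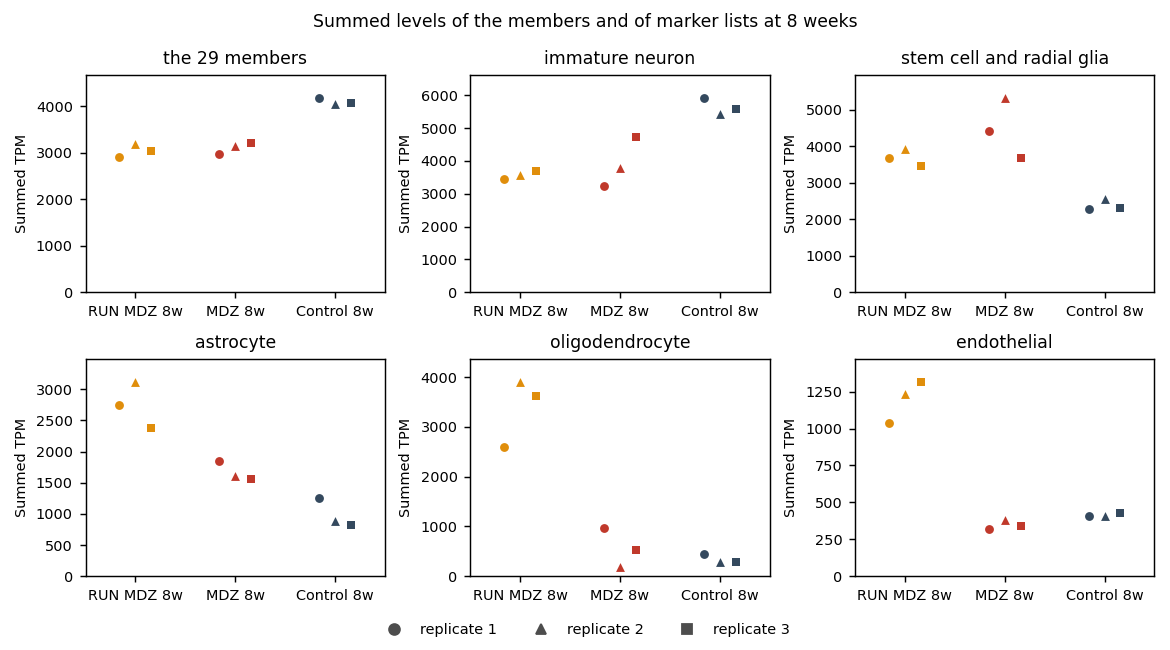
Summed TPM of the 29 members and of 5 marker lists in each 8-week library, with the replicate number given by the symbol. The members and the immature neuron markers are lower in the exposed groups, stem cell markers are higher there, and astrocyte, oligodendrocyte and endothelial markers are highest in RUN MDZ 8w.

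The comparison of MDZ 8w with Control 8w asked what remained of early exposure in adult cells. Sncb, encoding beta-synuclein, was the 1 member that rose, where 4.68% of all 15264 genes were called higher and 0.452% lower. It measured 18.7, 9.87 and 16.1 TPM in MDZ 8w, and was listed at 0, 1.55 and 0.253 TPM in Control 8w. No Control 8w library came near the MDZ 8w range (limma log2 change 3.48 ± 0.60, adjusted p = 0.0173). The call did not hold without any 1 of the MDZ 8w replicates (limma adjusted p = 0.101 without replicate 1, 0.0559 without replicate 2 and 0.0867 without replicate 3), nor with quantile normalization (0.264). By limma, 7 of the 28 members had an unadjusted p below 0.05, 3 of them higher and 4 lower. So did 3476 of the 15264 genes, 2694 of them higher and 782 lower. The members' share was thus near that of all genes only when both directions were pooled. Of the 28 members, 10 had groups that did not overlap and were lower in MDZ 8w, against 10.1% of all genes, and 4 were higher, against 26.2% of all genes. The median log2 difference was -0.19 for the members and 0.36 for all genes. With quantile normalization the 2 medians were -0.32 and -0.06, so the members' median stayed below that of all genes while the shift of all genes went away. Changes in this comparison and in that of RUN MDZ 8w with Control 8w are relative to such shifts.

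Among vesicle genes, Vamp2 measured 375, 405 and 381 TPM in MDZ 8w and 583, 567 and 592 TPM in Control 8w. The groups were well apart, but the gene did not pass (limma log2 difference -0.59 ± 0.15, adjusted p = 0.0655). It did pass with a pseudocount of 0.1 (limma adjusted p = 0.037) and with Control 8w replicates 2 and 3 kept apart (0.0159). The latter fit counted as separate samples the libraries that were averaged for their closeness, which can make p too small. Syn2 measured 90.8, 83.7 and 94.5 TPM against 143, 140.3 and 139 TPM (limma log2 difference -0.65 ± 0.24, adjusted p = 0.166). Rab3a measured 220.4, 248 and 293 TPM against 418, 329 and 365 TPM (limma log2 difference -0.59 ± 0.21, adjusted p = 0.157). Syt1 and Syp likewise had no MDZ 8w library inside the Control 8w range and did not pass. Of the fusion genes, Snap25, Cplx1 and Cplx2 were lower without overlap. Cplx1 measured 109.5, 121 and 138 TPM in MDZ 8w and 457, 165 and 169 TPM in Control 8w, with replicate 1 of Control 8w far above the other two. Stx1a overlapped, with 54.4, 59.8 and 57.2 TPM in MDZ 8w and 55.3, 41.1 and 45.6 TPM in Control 8w. Bsn, the scaffold protein bassoon of the active zone, was lower without overlap at 16.8 ± 1.29 TPM in MDZ 8w (SD, n = 3) and 39.5, 22.9 and 22.2 TPM in Control 8w, and Rims1, Unc13a and Pclo overlapped.

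Several members were listed at 0 in Control 8w. Sv2b, Camk2a, Nefl and Nefh were at 0 in all 3 Control 8w libraries, where 7, 5 and 5 members in all were at 0, against at most 1 member in any library of the other 8-week groups. Camk2a measured 3.68, 8.6 and 1.68 TPM in MDZ 8w (limma adjusted p = 0.0964) and Nefl 2.68, 6.29 and 3.63 TPM (adjusted p = 0.146). An exact 0 can be a failed estimate, and fewer genes of any kind were above 0 in Control 8w. No fold is given for these genes.

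For other members the Control 8w libraries disagreed with each other. Nrxn3 was listed at 43.5, 0 and 0 TPM in Control 8w and measured 11.2, 15.1 and 9.37 TPM in MDZ 8w. Fits that left out either part of Control 8w had 1 control sample, whose spread was taken to equal that of the exposed groups. Without replicate 1 the log2 difference of Nrxn3 was 3.66 (limma adjusted p = 0.00244), and without replicates 2 and 3 it was -1.81 (adjusted p = 0.0151), so the direction was set by which Control 8w library was used. Camk2b behaved likewise, with 117, 129 and 120.1 TPM in MDZ 8w and 62.3, 240.2 and 253 TPM in Control 8w. Its difference was -1.01 without replicate 1 (limma adjusted p = 0.0105) and 0.96 without replicates 2 and 3 (adjusted p = 0.00876). Map2 at 187, 580.3 and 516 TPM, Gap43 at 316, 76.1 and 86.9 TPM and Nlgn1 at 61.9, 11.7 and 9.06 TPM in Control 8w also bracketed the MDZ 8w values. Map2 in MDZ 8w was 415, 438 and 414 TPM, Gap43 173, 179 and 127 TPM and Nlgn1 35.7, 21.2 and 20.4 TPM. Rims1 and Nefm were listed at 0 in Control 8w replicate 1 and at 10.7 to 16.9 TPM in replicates 2 and 3. The number of members called in MDZ 8w against Control 8w was 3 without Control 8w replicate 1, and 0 without any 1 of the MDZ 8w replicates.

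**Figure D5:**
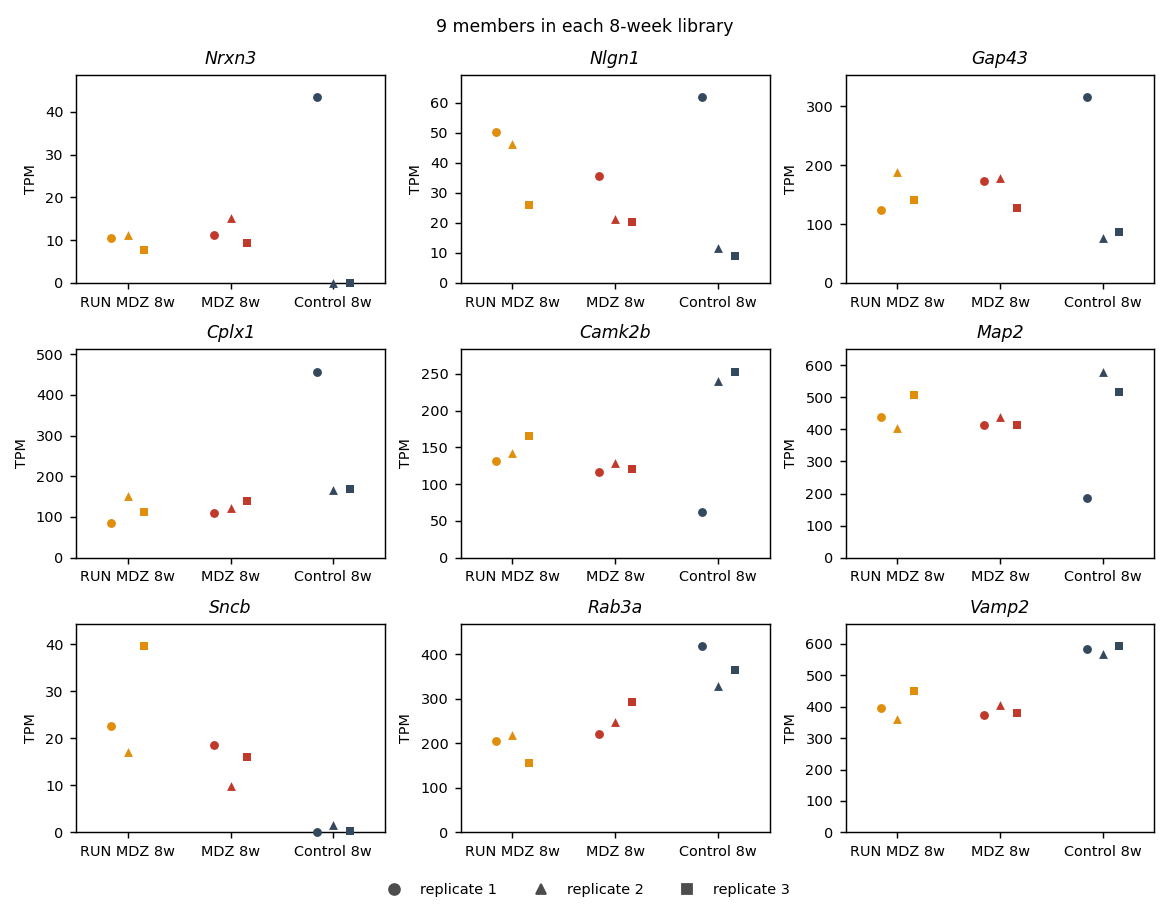
TPM of 9 members in each 8-week library, from 0, with the replicate number given by the symbol. In the upper 6 panels Control 8w replicate 1 lies far from replicates 2 and 3, which lie together, whereas in Rab3a and Vamp2 all 3 Control 8w libraries lie above the exposed libraries and in Sncb all 3 lie below them.

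The comparison of RUN MDZ 8w with MDZ 8w asked what running did in exposed mice. No member passed, and by limma 0 of the 28 had even an unadjusted p below 0.05, against 1523 of all 15264 genes. Over all genes, 0.0524% were called higher and 0.105% lower, which is 8 and 16 genes, and with quantile normalization 15 and 19 genes. The members' median log2 difference was -0.08, against 0.05 for all genes. Groups did not overlap in 3 members that were higher, Syt1, Syn1 and Camk2b, against 14.4% of all genes, and in 2 that were lower, Rab3a and Stx1a, against 10.5% of all genes. Syt1 measured 10.6, 16.3 and 15.3 TPM in RUN MDZ 8w and 6.62, 8.23 and 10.1 TPM in MDZ 8w (limma log2 difference 0.69 ± 0.47, adjusted p = 0.757). Syn1 measured 101, 85.6 and 84 TPM against 70.1, 66.1 and 61.5 TPM (limma log2 difference 0.44 ± 0.20, adjusted p = 0.518). In both genes every RUN MDZ 8w library lay above every MDZ 8w library. Stx1a measured 40.9, 39.9 and 46.1 TPM in RUN MDZ 8w and 54.4, 59.8 and 57.2 TPM in MDZ 8w (limma log2 difference -0.43 ± 0.22, adjusted p = 0.588). Rab3a measured 206, 219 and 156 TPM against 220.4, 248 and 293 TPM (limma log2 difference -0.40 ± 0.19, adjusted p = 0.56). Of the 72 related genes, 71 were in the fit and none passed by limma, with 7 at an unadjusted p below 0.05. Marker lists of several other cell types differed between these libraries. The 10 endothelial markers summed to 1036 to 1316 TPM in RUN MDZ 8w, against 319 to 380.3 TPM in MDZ 8w, with 4 of 10 called higher. The 7 oligodendrocyte markers summed to 2600.1 to 3905 TPM against 194 to 964 TPM, with none of 7 called by limma and 6 at an unadjusted p below 0.05. The 10 pericyte and smooth muscle markers summed to 2323 to 3395 TPM against 637 to 1384 TPM, with 1 of 10 called higher. The 8 astrocyte markers summed to 2385 to 3116 TPM against 1554 to 1855 TPM, with none called by limma and 4 at an unadjusted p below 0.05, all higher. The 9 microglia markers summed to 92 to 208 TPM against 131 to 317 TPM, with all 9 differences negative, none called by limma and 1 at an unadjusted p below 0.05. The defining markers Cldn5, Cdh5 and Mbp were above 0 in every library of both groups. Their part in the members' levels was not tested.

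RUN MDZ 8w was also set against Control 8w, which shares those control samples with the comparison above. These groups differed both in midazolam exposure and in running, and the parts of exposure and running cannot be told apart here. Sncb and Camk2a rose and Rab3a fell, where 9.41% of all genes were called higher and 1.9% lower. Those shares are 1437 and 290 genes, and with quantile normalization 278 were called higher and 128 lower. In the same comparison 7 of 7 oligodendrocyte, 8 of 10 endothelial, 6 of 8 astrocyte and 3 of 11 stem cell and radial glia markers were called higher, and 5 of 11 immature neuron markers lower. Their part in the members' changes was not tested. Sncb measured 22.6, 17.2 and 39.6 TPM in RUN MDZ 8w, above the 0, 1.55 and 0.253 TPM of Control 8w (limma log2 change 4.23 ± 0.60, adjusted p = 0.0059). Camk2a measured 7.19, 9.57 and 9.52 TPM where Control 8w was listed at 0 throughout (limma adjusted p = 0.0212), and it did not pass without RUN MDZ 8w replicate 3 (0.051) or without MDZ 8w replicate 1 (0.0549), which shares the fit. Rab3a measured 206, 219 and 156 TPM, below the 418, 329 and 365 TPM of Control 8w (limma log2 change -0.99 ± 0.21, adjusted p = 0.0265). It did not pass without RUN MDZ 8w replicate 1 (limma adjusted p = 0.052) or 3 (0.0612) or without MDZ 8w replicate 2 (0.0574). None of the 3 passed with quantile normalization or with the 2 groups fitted alone. By limma, 10 of the 28 members had an unadjusted p below 0.05, 3 of them higher and 7 lower. So did 4146 of the 15264 genes, 3135 of them higher and 1011 lower. Groups did not overlap in 8 members that were lower, against 9.47% of all genes, and in 3 that were higher, against 23% of all genes. The lower ones were Syp, Syn2, Vamp2, Rab3a, Cplx1, Cplx2, Bsn and Stmn2. The members' median log2 difference was -0.22 and that of all genes 0.51, and with quantile normalization they were -0.51 and -0.09. The number of members called was 8 without Control 8w replicate 1, 1 without RUN MDZ 8w replicate 3, and 3 with all samples.

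Of the related genes, limma called Rims3 higher in MDZ 8w, where it measured 10.1, 7.92 and 18.1 TPM and was listed at 0 in all 3 Control 8w libraries (adjusted p = 0.0233). In RUN MDZ 8w against Control 8w, 7 related genes were called higher and 4 lower. The 5 largest of the higher ones were Nrgn, Unc13b, Rimbp2, Erc2 and Unc13c, and all 5 were listed at 0 in at least Control 8w replicates 2 and 3. The lower ones included Chga, Tubb3 and Elavl4. Chga, a protein of dense-core vesicles, measured 91.6, 77.3 and 84.4 TPM in RUN MDZ 8w and 189.7, 152 and 182 TPM in Control 8w (limma log2 change -1.07, adjusted p = 0.0114). Tubb3, the tubulin isotype of neurons, measured 503, 739 and 650.4 TPM against 1204, 1155 and 1359.6 TPM (limma log2 change -0.98 ± 0.21, adjusted p = 0.0267). Of these 12 calls, that of Chga alone was kept without each library in turn.

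Neuronal genes outside neurons are held down by repressors, chiefly REST with its corepressors Rcor1, Rcor2 and Sin3a, and their splicing by Ptbp1. Ptbp2, a relative of Ptbp1, was listed with them. Rest measured 13, 16.9 and 12.1 TPM in RUN MDZ 8w and 8.16, 7.58 and 5.68 TPM in MDZ 8w, and was listed at 0, 0 and 0.0709 TPM in Control 8w. It rose in both exposed groups against Control 8w (limma adjusted p = 0.00484 for RUN MDZ 8w and 0.0177 for MDZ 8w), but with quantile normalization its log2 differences were 1.16 and 0.31 and neither passed, and in MDZ 8w it did not pass without any 1 of the MDZ 8w replicates. At P10 Rest measured 4.49, 4.91 and 4.44 FPKM in MDZ P10, against 3.48, 3.69 and 3.46 FPKM in Control P10, without overlap and without passing (limma log2 difference 0.30 ± 0.07, adjusted p = 0.215). In culture it measured 16.1, 12.7 and 10.4 TPM with added Egr1 and 8.91, 6.94 and 10 TPM in Control culture (limma log2 change 0.54 ± 0.17, adjusted p = 0.0297). That call was lost without Egr1 culture replicate 1 or 2 or Control culture replicate 1 or 2 (adjusted p 0.0608 to 0.0895). In the same libraries Rcor1 rose (39.9 ± 4.01 TPM in Egr1 culture and 31.9 ± 3.12 TPM in Control culture, limma adjusted p = 0.0307) and Ptbp1 fell (144 ± 10.7 TPM and 167 ± 3.71 TPM, adjusted p = 0.0301). Neither held in every fit without 1 library, and the fall of Ptbp1 was -0.10 and did not pass with median-of-ratios scaling. Rcor2, Ptbp2 and Sin3a did not pass in culture, although Sin3a did with median-of-ratios scaling (limma adjusted p = 0.0358). At P10 and at 8 weeks Rest alone of the 6 passed as deposited. Rcor1 also passed, as lower in RUN MDZ 8w against Control 8w, with Control 8w replicates 2 and 3 kept apart (limma log2 difference -0.92, adjusted p = 0.03). That fit counted these close replicates as separate samples. Without those replicates, which leaves 1 control sample, the log2 difference of Rcor1 was -1.29. In that same setting Ptbp2 had log2 differences against Control 8w of 1.31 in MDZ 8w and 1.57 in RUN MDZ 8w.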

How the data were processed

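RNA levels were measured in 21 libraries, and the other 10 samples of the series, made with other assays, were not analysed here. The authors deposited FPKM values at P10 and TPM values at 8 weeks and in culture, 1 value per gene name; the unit names were read from the values, since the labels give none. Per the submitters' processing notes the build was mm10, and TopHat, Bowtie2 and DESeq2 were named without a role. The quantifier, the annotation and the strand setting were not given in the sources used here. Reads of overlapping or near-identical genes may be shared. Per the labels' protocols, poly(A) RNA was isolated with magnetic beads and libraries were directional. FPKM and TPM are shares of a library, so a large change in some genes shifts all the others. Read depth is unknown at 8 weeks; from the spacing of low values the shallowest P10 library had 0.57 times and the shallowest culture library 0.901 times the reads of the deepest of its table.

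From there, log2(value + 1) was tested with limma 3.58.1 in R 4.3.3 (empirical Bayes with a mean trend), separately at P10, over the 3 groups at 8 weeks and in culture, on genes with a mean of at least 1. Benjamini-Hochberg adjustment ran over all genes of a fit, and 0.05 was the threshold. The procedure was tested on simulated data. Alternatives were pseudocounts of 0.1 and 5, no filter, quantile normalization, median-of-ratios scaling, library quality weights, a replicate block, the 2 groups alone, Control 8w replicates 2 and 3 kept apart, and each replicate left out. Promoter tables were read with Python 3.11.15 and pandas 2.3.3. The members, the related genes and the marker lists were chosen with earlier results of these data known. All members are named, and of the related genes the 5 largest called changes in each direction and the 6 repressors, except for some that are not reported here; other genes with values were named after these were seen.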

Additional observations from a re-analysis of the deposited data

Results flagged for a closer look

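Vamp2, picked among the members after their values were seen, had opposite differences at the 2 ages. Its limma log2 difference of midazolam-exposed against control mice was 0.15 at P10 and -0.59 at 8 weeks. Every exposed library was higher than every control library at P10 and lower at 8 weeks. Of all genes tested, 12.2% were likewise higher without overlap at P10. At 8 weeks 10.1% were lower without overlap in MDZ 8w and 9.47% in RUN MDZ 8w, each against Control 8w. Neither difference passed the adjusted threshold (limma adjusted p = 0.329 at P10 and 0.0655 at 8 weeks), and the difference between the ages was not tested, since the 2 data sets are in separate units. At 8 weeks the immature neuron markers were also lower in exposed mice; their part in this difference was not tested.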

How the results depend on the processing

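In culture the 13 member calls were kept in all 13 alternatives, and with a replicate block 13 members and 4646 genes were called. Leaving out 1 library gave 13 to 14 members, 26 to 30 related genes and 4383 to 5012 of all genes. Quantile normalization gave 2452 higher and 3214 lower, against 1888 higher and 3598 lower as deposited. At P10, 1 gene was called; 2 were with a pseudocount of 5, 4 with quantile normalization, 0 with median-of-ratios scaling, 5 with library quality weights and 0 with a replicate block. Leaving out 1 library gave 0 members, 0 to 1 related genes and 0 to 101 of all genes.

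For MDZ 8w against Control 8w, members called (1), related genes called (1) and all genes called (783) were 3, 4 and 1410 with a pseudocount of 0.1. A pseudocount of 5 gave 0 members and 461 genes, quantile normalization 0, 0 and 152, library quality weights 0, 0 and 19, and the 2 groups alone 2 members and 3 related genes. With Control 8w replicates 2 and 3 kept apart the numbers were 3, 7 and 1787, and 2, 4 and 1227 with a replicate block as well. Fits that kept these close replicates apart counted them as separate samples, which can make p too small. Leaving out 1 library gave 0 to 3, 0 to 9 and 207 to 2928. For RUN MDZ 8w against MDZ 8w (0 members, 0 related genes and 24 of all genes), quality weights gave 1 related gene and 432 genes, and the 2 groups alone 1 and 360. All genes numbered 122 with those replicates apart and 14 with the block added. Leaving out 1 library gave 0 members, 0 to 1 related genes and 0 to 275 genes.

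For RUN MDZ 8w against Control 8w (3, 11 and 1727), a pseudocount of 0.1 gave 5 members, median-of-ratios scaling 5 members, and a pseudocount of 5 gave 7 related genes. Quantile normalization gave 0, 1 and 406, and quality weights and the 2 groups alone each 0, 0 and 0. With replicates 2 and 3 apart 8 members and 2904 genes were called, and 9, 17 and 2595 with the block added. Leaving out 1 library gave 1 to 8, 1 to 17 and 910 to 3952. Control 8w without replicates 2 and 3, chosen after seeing the data, gave 9, 25 and 4995 for MDZ 8w, 1 related gene and 345 genes for RUN MDZ 8w against MDZ 8w, and 11, 28 and 5649 for RUN MDZ 8w against Control 8w. There the log2 difference of Nrxn3 turned to -1.81 in MDZ 8w and -2.05 in RUN MDZ 8w, and that of Camk2b to 0.96 in MDZ 8w. Without Control 8w replicate 1, Camk2b in RUN MDZ 8w turned to -0.75, and leaving out 1 library at a time it ranged up to 0.30. The cause of these shifts was not tested.

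Equal replicate numbers were not taken to pair the samples. Deviations of same-numbered libraries correlated by -0.08 to 0.12 at P10, -0.02 to 0.13 at 8 weeks and -0.05 to 0.02 in culture. Other pairs at P10 correlated by -0.22 to 0.16. Deviations within groups of 3 are tied to each other, so these values cannot exclude a pairing. Levels near 0 are limited by an unknown depth at 8 weeks, where an exact 0 may be a failed estimate.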
